A study of Mus musculus with 11 samples.

Results

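Peroxisomes are small organelles bounded by a single membrane, and 31 genes that serve them were followed here in aged mouse muscle. The members are 19 enzymes and transporters of peroxisomal fatty acid oxidation and ether lipid synthesis and 12 Pex genes, which encode the peroxins that build the organelle. They were chosen by name as a pathway list, not by their measured values, out of 53465 genes in the table. Each of the 31 symbols matched a single Ensembl gene identifier. RNA was sequenced from the quadriceps, a thigh muscle, of mice of the strain written C57L/6JRj in the labels. Treatment began at 18 months of age and went on for 10 weeks. The control group received DMSO, the solvent, and gave 5 libraries. The treated group received myriocin, an inhibitor of the enzyme that starts sphingolipid synthesis, and gave 6 libraries. The sources used here do not give the dose, the route or the sex of the mice. Nor do the labels say whether libraries of a group came from different mice, and the p-values therefore reflect the spread between these libraries, which may be technical. The comparison asks how muscle RNA of old mice differs after the treatment.

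Peroxisomes shorten very long and branched fatty acids by beta-oxidation. Where a branch blocks it, alpha-oxidation first removes the carboxyl carbon at the end of the chain. Peroxisomes also carry out the opening steps of ether lipid synthesis, which leads to plasmalogens. Their matrix enzymes are made in the cytosol and brought in by the receptors PEX5 and PEX7, which dock on the membrane, release their cargo and are pulled out again by an ATP-driven complex. Several of the enzymes are known targets of the PPAR receptors, which respond to fatty acids, and muscle holds fewer peroxisomes than liver or kidney.

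Between 22241131 and 23163721 reads per library were counted in genes. Levels are given as CPM, counts relative to the size of the library, with sizes set by TMM, a method that scales on the bulk of genes. The 8 markers of muscle fibres summed to 133988 to 182529 CPM, so the labelled tissue was present in each library. DMSO replicate 2 stood apart. The brown adipocyte gene Ucp1 reached 45.7 CPM there against at most 0.78 CPM in the other 10 libraries, with 0 counts in 4 libraries, and Cidea reached 32.8 CPM against at most 5.47 CPM. The 8 white adipocyte markers were detected in each library and summed to 2866 CPM in DMSO replicate 2 and to 665 to 1628 CPM in the others. Car3 made up much of these sums, with 1241 CPM in DMSO replicate 2 and 374 to 1011 CPM in the others. The sums therefore do not measure adipocyte content. Adipoq stood at 94.5 CPM in DMSO replicate 2 against 13.1 to 42.6 CPM in the others. The 7 neutrophil markers summed to 806 CPM in it and to at most 118 CPM elsewhere, with Ngp, Ltf and Retnlg at 0 in some libraries. Hepatocyte markers summed to 133, 116 and 149 CPM in DMSO replicates 4 and 5 and Myriocin replicate 4, and to at most 32.8 CPM in the other 8 libraries. In bulk tissue, fewer cells of a type and less RNA per cell cannot be told apart.

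Before any comparison, the members differed from each other by orders of magnitude in level, and enzymes and Pex genes were interleaved in the order. On the scale of CPM per kilobase of annotated exon, Phyh led with 82.5 ± 11.4 (SD, n = 5) in DMSO libraries. It encodes phytanoyl-CoA hydroxylase, which begins alpha-oxidation. Gnpat followed with 57.9 ± 2.67 CPM per kilobase (SD, n = 5); its product attaches the acyl group in the opening step of ether lipid synthesis. Scp2, which holds a thiolase and a lipid carrier in its products, had 34.8 ± 3.63 CPM per kilobase (SD, n = 5). Pex19, the chaperone of newly made peroxisomal membrane proteins, had 26.0 ± 0.43 CPM per kilobase (SD, n = 5) and was the highest peroxin. Hsd17b4, the D-bifunctional protein of beta-oxidation, had 20.7 ± 2.01 CPM per kilobase (SD, n = 5). A dense middle ran from Pex2 at 12.1 to Pex11a at 7.61 CPM per kilobase, where neighbours such as Amacr (8.16 ± 0.51), Pex5 (8.10 ± 0.61) and Eci2 (8.04 ± 0.57) differed by less than their SD (n = 5). At the low end Far1 stood at 1.16, Pex26 at 0.95 and Acaa1b at 0.56 CPM per kilobase. Phyh was 86.6 times as high as Pex26 per kilobase. The length used sums all annotated exons of a gene. With the length of the transcript that has the longest coding part, Phyh and Gnpat kept the top places, Pex19 passed Scp2, and Eci2 went from place 15 to place 5, so the order inside the list depends on the gene model.

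**Figure D1:**
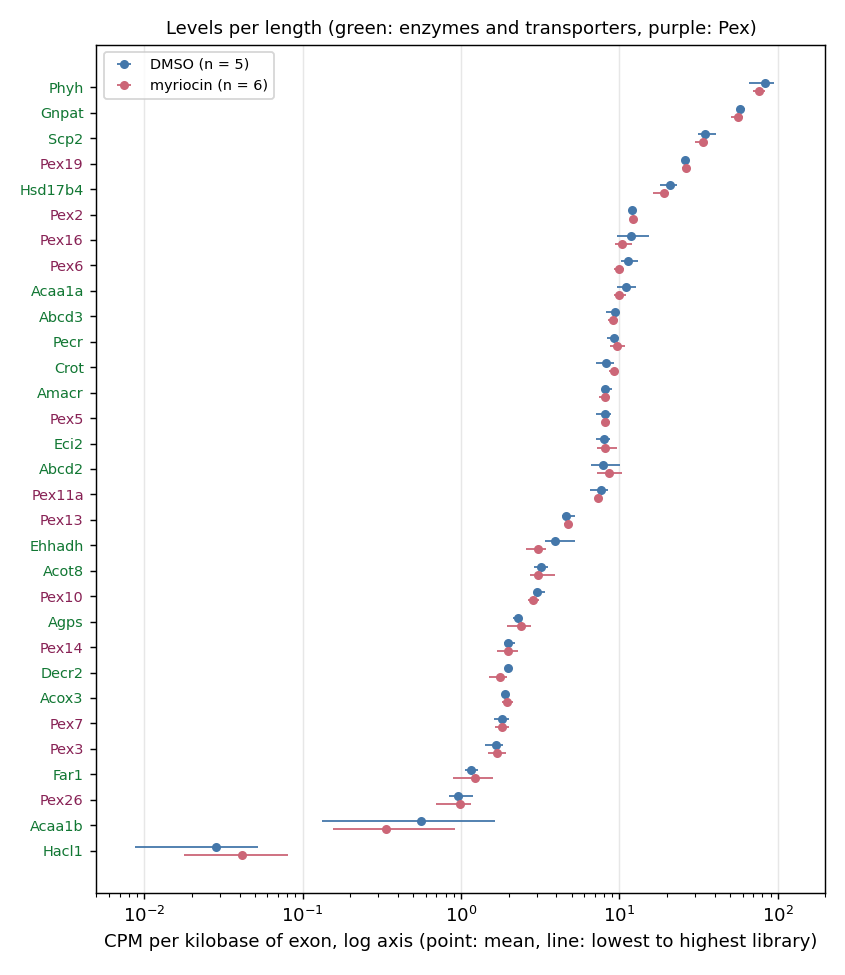
Levels of the 31 members as CPM per kilobase of annotated exon on a log axis, with DMSO libraries in blue and myriocin libraries in red, points for group means and lines from the lowest to the highest library. Phyh, Gnpat, Scp2, Pex19 and Hsd17b4 lead, the groups lie on top of each other for most genes, and Acaa1b has the widest range among tested members.

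Hacl1, the lyase that splits the chain in alpha-oxidation, had only 1 to 9 reads per library and was not tested, as it missed the filter on low counts. Its level was 0.14 ± 0.085 CPM in the 5 DMSO libraries and 0.206 ± 0.11 CPM in the 6 myriocin libraries (mean and SD), around the 0.13 CPM that 3 reads are worth. These counts may not give its level. Of its main transcript, 53.0% of the bases are also exons of Gm49387, an annotated protein-coding gene on the same strand that had 0 reads in each library, and the submitters' table holds reads that matched more than 1 gene only as a total. How many Hacl1 reads went there was not tested. The other 30 members were tested, 18 of them enzymes or transporters and 12 of them Pex genes.

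Across the peroxisomal transcripts, differences between myriocin and DMSO were small, and 0 members passed the test. With edgeR's quasi-likelihood test over 14117 genes, 0 of 30 members passed an adjusted p of 0.05, where the share among all genes was 0.0%, and DESeq2 likewise called 0 members. Without adjustment, 3 members had a p under 0.05, against 4.61% of all genes. Of these, Ehhadh and Pex6 had lower levels with myriocin (2.3% of all genes) and Crot a higher level (2.31% of all genes). Negative log2 fold changes, myriocin minus DMSO, were found for 18 of 30 members and for 53.8% of all genes, with a median of -0.017 for the members and -0.012 over all genes. In 0 of 30 members did the groups of libraries lie fully apart, a pattern seen in 0.361% of all genes. The data bound the size of any change for most members. The 95% interval of the log2 fold change stayed within 0.5 of 0 for 28 of 30 members (68.5% of all genes) and within 0.25 of 0 for 16 of 30 (27.1% of all genes). Library-to-library variation was small as well, the coefficient of variation over the 11 libraries being under 10% for 21 of 30 members. Its median was 9.41% for enzymes and transporters, 7.79% for Pex genes and 13.7% over all genes, which were not matched to the members in level. The sign of 14 of 30 members changed in at least 1 alternative fit, so signs of values near 0 carry no direction.

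**Figure D2:**
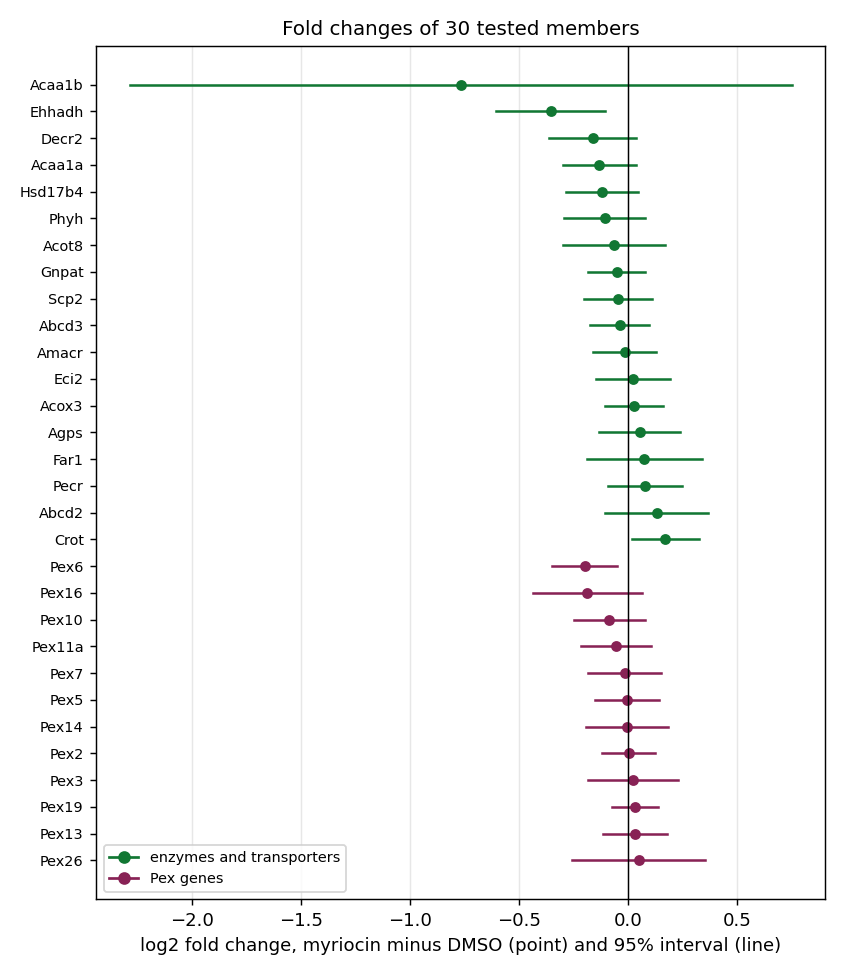
Log2 fold change of each of the 30 tested members, myriocin minus DMSO, from edgeR's quasi-likelihood fit, with 95% intervals as lines, enzymes and transporters in green and Pex genes in purple. Ehhadh, Pex6 and Crot are the members whose interval leaves out 0, and 0 members passed the adjusted threshold.

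Promoter windows were read to see which sequence features the members share. RefSeq on GRCm38.p6 gave windows of 300 bases, from 250 before to 50 after the annotated start, for 26 of 31 members. The members without an entry were Hsd17b4, Amacr, Abcd2, Pex19 and Pex2. The windows of the 3 members with an unadjusted p under 0.05 and of the thiolase pair are shown, on the strand of the gene, 5′ to 3′. Capitals mark matches, on either strand, to the GC box GGGCGG, the CCAAT box CCAAT and the ETS factor site CCGGAAG.
Ehhadh, chr16:21787785-21788084, minus strand: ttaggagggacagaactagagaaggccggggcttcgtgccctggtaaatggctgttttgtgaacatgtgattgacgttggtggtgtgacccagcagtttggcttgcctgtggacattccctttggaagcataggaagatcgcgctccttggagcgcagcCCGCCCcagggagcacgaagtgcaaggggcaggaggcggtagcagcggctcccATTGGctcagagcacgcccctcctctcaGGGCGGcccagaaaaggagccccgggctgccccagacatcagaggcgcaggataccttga
Pex6, chr17:46711226-46711525, plus strand: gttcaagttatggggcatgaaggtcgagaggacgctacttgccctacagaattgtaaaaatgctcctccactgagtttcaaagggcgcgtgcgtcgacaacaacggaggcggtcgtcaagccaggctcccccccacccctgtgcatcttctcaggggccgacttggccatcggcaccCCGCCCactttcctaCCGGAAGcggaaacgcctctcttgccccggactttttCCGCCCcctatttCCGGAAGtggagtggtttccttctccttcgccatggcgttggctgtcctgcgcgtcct
Crot, chr5:8997097-8997396, minus strand: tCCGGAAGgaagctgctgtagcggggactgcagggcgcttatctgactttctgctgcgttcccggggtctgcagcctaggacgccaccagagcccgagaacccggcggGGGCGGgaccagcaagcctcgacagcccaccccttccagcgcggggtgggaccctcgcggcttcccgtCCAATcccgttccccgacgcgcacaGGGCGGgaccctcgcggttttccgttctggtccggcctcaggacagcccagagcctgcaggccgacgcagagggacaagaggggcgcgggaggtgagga
Acaa1a, chr9:119341044-119341343, plus strand: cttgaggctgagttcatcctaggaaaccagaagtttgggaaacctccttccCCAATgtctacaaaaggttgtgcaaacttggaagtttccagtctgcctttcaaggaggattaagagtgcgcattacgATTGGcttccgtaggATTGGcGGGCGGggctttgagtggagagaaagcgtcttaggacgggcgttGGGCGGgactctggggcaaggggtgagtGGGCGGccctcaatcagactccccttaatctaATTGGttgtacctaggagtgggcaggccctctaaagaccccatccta
Acaa1b, chr9:119157044-119157343, minus strand: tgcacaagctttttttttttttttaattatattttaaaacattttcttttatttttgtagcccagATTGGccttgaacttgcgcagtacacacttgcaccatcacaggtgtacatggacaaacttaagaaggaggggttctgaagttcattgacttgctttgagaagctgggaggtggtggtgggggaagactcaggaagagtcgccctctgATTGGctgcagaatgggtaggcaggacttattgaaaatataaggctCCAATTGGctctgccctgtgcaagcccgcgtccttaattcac

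The Pex6 window holds the ETS site 2 times, at -58 and at -8 from the start, beside GC boxes at -73 and -21. Ehhadh and Crot carry GC boxes and a CCAAT box, and Crot has its ETS site at the far end of the window. The thiolase windows differ. Acaa1a has 3 GC boxes, a GC content of 53.3% and 10 CpG dinucleotides. Acaa1b has 0 GC boxes, a GC content of 43.7% and 4 CpG dinucleotides. Both windows hold 4 CCAAT boxes, and in Acaa1b the last pair overlaps. Over all members with a window, a GC box was found in 13 of 16 enzyme and transporter genes and in 8 of 10 Pex genes, against 38.2% of 27025 genes. The CCAAT box was found in 10 of 16 and 3 of 10 (41.1% of all genes), the ETS site in 3 of 16 and 3 of 10 (9.93%), and the TATA box TATAAA in 0 of 16 and 3 of 10 (15.7%). The median GC content was 59.5% for enzymes and transporters, 58.3% for Pex genes and 52.8% for all genes. The PPAR response element was searched only as an exact direct repeat of AGGTCA with 1 base between the copies, on either strand. That repeat was in 0 of 26 member windows and in 0.0481% of all genes. With a match that rare, 0 of 26 does not tell whether members hold such an element. The repeat unit AGGTCA alone, which also counts inside that repeat, was in the windows of Phyh and Scp2 only (18.1% of all genes). These are matches of letters in short windows and describe the sequence, not binding.

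Ehhadh encodes the L-bifunctional protein, which hydrates and then oxidises the acyl chain in peroxisomal beta-oxidation (ENSMUSG00000022853, GRCm38 chromosome 16, 21761287 to 21787807, minus strand). It stood at 11.2, 15.6, 10.7, 10.1 and 10.9 CPM in DMSO replicates 1 to 5. In the 6 myriocin libraries it ran from 7.72 to 10.2 CPM with a median of 9.10 CPM. Each myriocin library lay below the DMSO mean, but the groups overlapped, since the highest myriocin libraries passed DMSO replicate 4. The means were 11.7 ± 2.23 CPM (SD, n = 5) and 9.14 ± 0.934 CPM (SD, n = 6), a log2 fold change of -0.36 (SE 0.12; edgeR adjusted p = 0.944). DMSO replicate 2, the library with adipocyte transcripts, was the highest of all. Without it the log2 fold change was -0.23 (SE 0.09; edgeR adjusted p = 0.970).

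Crot encodes carnitine O-octanoyltransferase, which turns shortened acyl-CoA into acylcarnitine that can leave for mitochondria (ENSMUSG00000003623, GRCm38 chromosome 5, 8966033 to 8997324, minus strand). Its DMSO libraries held 45.0, 50.5, 43.4, 46.5 and 38.8 CPM. The myriocin libraries ran from 46.7 to 53.6 CPM with a median of 51.6 CPM. All 6 of them lay above the DMSO mean, while DMSO replicate 2 sat among them. The means were 44.8 ± 4.28 CPM (SD, n = 5) and 50.4 ± 2.79 CPM (SD, n = 6), a log2 fold change of 0.17 (SE 0.07; edgeR adjusted p = 0.944). Leaving out DMSO replicate 2 gave 0.22 (SE 0.07; edgeR adjusted p = 0.970). Without DMSO replicate 5, its lowest library, the value was 0.12, and scaling by library totals alone gave 0.13. The unadjusted p exceeded 0.05 in both of these fits and without DMSO replicate 3 or Myriocin replicate 1, 2 or 3.

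The remaining enzymes of the beta-oxidation spiral showed small differences that did not pass the test. Decr2 encodes a peroxisomal dienoyl-CoA reductase, used for unsaturated chains. It held 5.19, 5.33, 5.13, 5.16 and 5.41 CPM in the DMSO libraries, the narrowest spread of the oxidation enzymes, and 4.004 to 5.21 CPM with a median of 4.80 CPM in the myriocin libraries. Only Myriocin replicate 1, at 5.21 CPM, reached into the DMSO range, and with CPM by library totals alone the groups lay apart for Decr2 and Pex6 (0.602% of all genes). The log2 fold change of Decr2 was -0.16 (SE 0.09; edgeR adjusted p = 0.944). Hsd17b4 stood at 70.5 ± 6.83 CPM in the 5 DMSO libraries and 64.8 ± 5.22 CPM in the 6 myriocin libraries (mean and SD), a log2 fold change of -0.12 with a 95% interval from -0.29 to 0.04. The acyl-CoA oxidase Acox3 had an interval from -0.11 to 0.16. Scp2, at 121.0 ± 12.6 and 117.1 ± 6.64 CPM, had an interval from -0.20 to 0.11, and its reads may be shared with 2 annotated pseudogene copies.

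Acaa1a and Acaa1b encode the thiolases that close the spiral for straight chains. Their main transcripts were 96.6% identical over 1428 aligned bases, with an identical stretch of 327 bases. Reads that lie wholly in such stretches align to both genes and are counted only in a summary line of the table, so both levels are uncertain. Acaa1a (ENSMUSG00000036138, GRCm38 chromosome 9, 119339676 to 119350299, plus strand) held 42.8, 49.0, 43.1, 50.3 and 56.1 CPM with DMSO. With myriocin it ran from 40.7 to 48.7 CPM, with a median of 43.8 CPM. The groups overlapped, and DMSO replicates 1 and 3 lay below the myriocin median. Its log2 fold change was -0.13 (SE 0.08; edgeR adjusted p = 0.944). Acaa1b (ENSMUSG00000010651, GRCm38 chromosome 9, 119148023 to 119157093, minus strand) was near the lower end of detection, with 6 to 79 reads per library. It held 0.26, 3.24, 0.391, 1.21 and 0.416 CPM with DMSO, and from 0.306 to 1.79 CPM with myriocin, with a median of 0.437 CPM. The 3 highest libraries were DMSO replicate 2, which carried the adipocyte transcripts, and Myriocin replicate 4 and DMSO replicate 4, which carried hepatocyte transcripts. DMSO replicate 5, also with hepatocyte transcripts, was not raised. The part of these cells in the level was not tested. The log2 fold change of Acaa1b was -0.77 with an interval from -2.29 to 0.75, and without DMSO replicate 2 it was 0.19. Per kilobase of annotated exon, Acaa1a was 19.4 times as high as Acaa1b in DMSO libraries, and 37.5 times without DMSO replicate 2. With the length of the main transcript, the DMSO means were 27.4 and 0.65 CPM per kilobase, a larger ratio. The size of the ratio thus depends on the gene model.

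Among the auxiliary enzymes, 0 passed the test. Amacr encodes the racemase that prepares branched chains, Eci2 an isomerase for unsaturated chains, Pecr a reductase of enoyl-CoA, and Acot8 a thioesterase that frees fatty acids from CoA. Amacr stood at 21.3 ± 1.33 and 21.0 ± 1.35 CPM in DMSO (SD, n = 5) and myriocin libraries (SD, n = 6), with an interval of the log2 fold change from -0.16 to 0.13. Eci2 had an interval from -0.15 to 0.19, Pecr from -0.09 to 0.25 and Acot8 from -0.30 to 0.17. Acot8 was the least precise of these, with 124 to 171 reads per library.

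In alpha-oxidation, Phyh was abundant and variable among controls. Its DMSO libraries held 170.5, 125.3, 162.1, 143.8 and 179.2 CPM, and the myriocin libraries ran from 131.3 to 157.3 CPM with a median of 145.0 CPM. DMSO replicate 2 was the lowest of all 11 libraries, the opposite of Ehhadh. The log2 fold change was -0.11 (SE 0.09; edgeR adjusted p = 0.944), and without DMSO replicate 2 it was -0.18 (SE 0.07; edgeR adjusted p = 0.970).

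The transporters Abcd2 and Abcd3 carry fatty acyl-CoA through the peroxisomal membrane. Abcd2, which takes very long and polyunsaturated chains, held 44.4, 60.3, 47.5, 43.1 and 39.6 CPM with DMSO and from 43.0 to 61.4 CPM with myriocin, with a median of 51.8 CPM. Its log2 fold change was 0.13 (SE 0.11; edgeR adjusted p = 0.944). Without DMSO replicate 2, the highest DMSO library, it was 0.24 (SE 0.09; edgeR adjusted p = 0.970). Abcd3, the most abundant membrane protein of many peroxisomes, stood at 61.5 ± 4.23 and 59.8 ± 3.62 CPM (SD, n = 5 and 6), with an interval of the log2 fold change from -0.18 to 0.10.

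The 3 ether lipid enzymes had like levels in both groups within their intervals. Far1 reduces fatty acyl-CoA to the fatty alcohol, Gnpat acylates dihydroxyacetone phosphate, and Agps exchanges the acyl chain for the alcohol. Gnpat stood at 207.8 ± 9.56 CPM in the 5 DMSO libraries and 200.2 ± 11.6 CPM in the 6 myriocin libraries (mean and SD), a log2 fold change of -0.05 with an interval from -0.18 to 0.08. Agps had an interval from -0.14 to 0.24 and Far1 from -0.19 to 0.34. Myriocin replicate 3 was the highest library for Far1 and Myriocin replicate 4 the lowest, at 12.8 and 7.17 CPM, so that the treated libraries span the full range seen.

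Of the peroxins, Pex6 had the smallest p. PEX6 is an ATPase of the complex that pulls used import receptors back out of the membrane (ENSMUSG00000002763, GRCm38 chromosome 17, 46711463 to 46725541, plus strand). Pex6 held 41.8, 49.4, 38.7, 41.7 and 44.4 CPM with DMSO. The myriocin libraries ran from 35.2 to 40.7 CPM with a median of 37.1 CPM. All 6 lay below the DMSO mean, and the groups met only where Myriocin replicates 3 and 4 passed DMSO replicate 3. The means were 43.2 ± 4.04 CPM (SD, n = 5) and 37.6 ± 1.93 CPM (SD, n = 6), a log2 fold change of -0.20 (SE 0.07; edgeR adjusted p = 0.944). Without DMSO replicate 2, again the highest library, it was -0.15 (SE 0.07; edgeR adjusted p = 0.970). Pex26, which anchors this complex in the membrane, gave 0.05 with an interval from -0.26 to 0.35, from 89 to 155 reads per library.

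**Figure D3:**
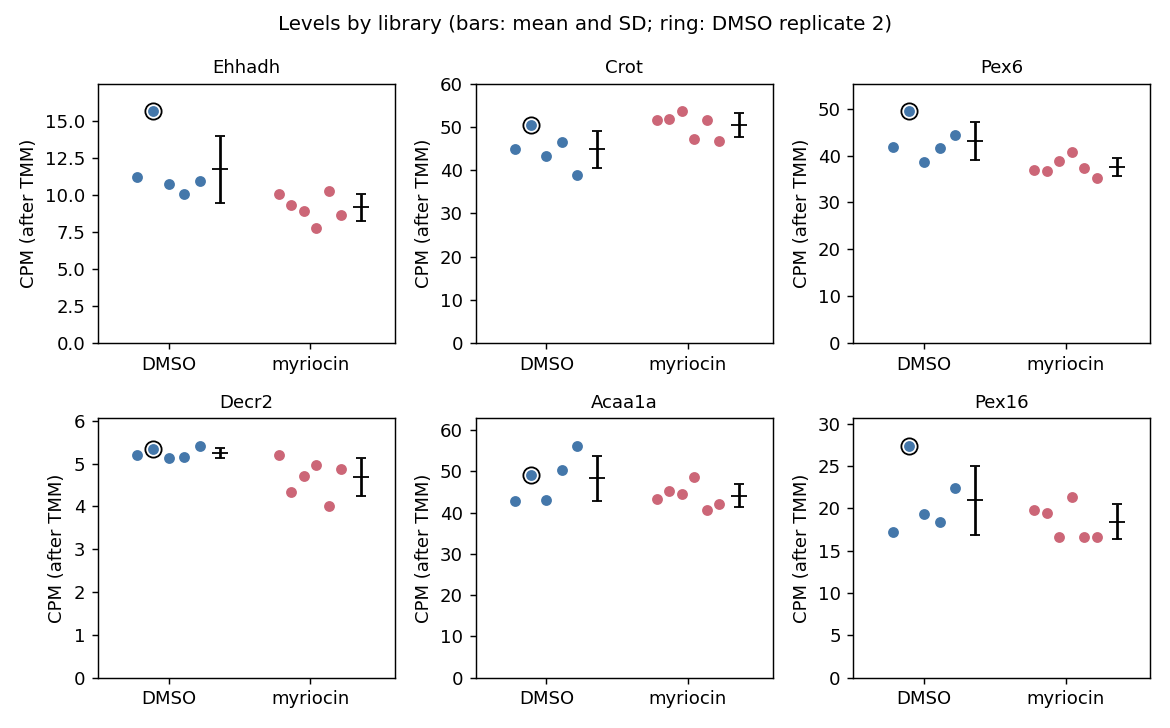
CPM after TMM scaling in each library for 6 members, with DMSO libraries in blue, myriocin libraries in red, and group mean and SD as black bars. A ring marks DMSO replicate 2, which is the highest library for Ehhadh, Pex6 and Pex16 and the highest DMSO library for Crot. The groups overlap in all 6 panels.

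Pex3, Pex16 and Pex19 insert membrane proteins. Pex16 held 17.2, 27.3, 19.4, 18.4 and 22.5 CPM with DMSO and from 16.6 to 21.3 CPM with myriocin, with a median of 18.0 CPM. Its log2 fold change was -0.19 (SE 0.12; edgeR adjusted p = 0.944) with all libraries and -0.07 (SE 0.10; edgeR adjusted p = 0.995) without DMSO replicate 2. Pex19 was the steadiest member, with a coefficient of variation of 2.93% over the 11 libraries. It stood at 99.0 ± 1.62 and 101.1 ± 3.56 CPM (SD, n = 5 and 6), and its interval ran from -0.08 to 0.14. Pex3 had an interval from -0.18 to 0.23.

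The import receptors and their docking site differed by less than the spread between libraries. Pex5, the receptor for the common C-terminal signal, stood at 32.0 ± 2.42 and 31.8 ± 1.79 CPM (SD, n = 5 and 6), with an interval from -0.15 to 0.14. Pex7, the receptor for the N-terminal signal of proteins such as PHYH and AGPS, had an interval from -0.18 to 0.15. For Pex13 and Pex14, which form the docking site, the intervals ran from -0.11 to 0.18 and from -0.19 to 0.18. Pex2 and Pex10 encode RING proteins that attach ubiquitin to used receptors. Pex2 was at 27.4 ± 0.688 and 27.5 ± 1.11 CPM (SD, n = 5 and 6), with an interval from -0.12 to 0.12, and Pex10 had an interval from -0.25 to 0.08. Pex11a, a membrane protein of peroxisome division that is known to respond to PPAR ligands in liver, stood at 24.2 ± 2.60 and 23.2 ± 0.823 CPM (SD, n = 5 and 6), with an interval from -0.22 to 0.10.

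Enzymes and Pex genes were then set side by side. Negative values were found for 11 of 18 enzymes and transporters and for 7 of 12 Pex genes, against 53.8% of all genes. The median log2 fold change was -0.044 for enzymes and transporters and -0.0058 for Pex genes, a difference of -0.038. Without DMSO replicate 2 the difference of medians was 0.001, and without Myriocin replicate 4 it was -0.007. Per library, the mean log2 CPM of the enzymes minus that of the Pex genes was 0.28, 0.51, 0.35, 0.41 and 0.29 in DMSO replicates 1 to 5, and lay from 0.28 to 0.41 in the myriocin libraries. The groups overlapped, while DMSO replicates 2 and 4 lay above the highest myriocin library and DMSO replicate 1 just below the lowest. Acaa1b, as a near-absent gene, weighed on this mean. Without it the difference was 0.66 ± 0.03 in the 5 DMSO libraries and 0.66 ± 0.07 in the 6 myriocin libraries (mean and SD). Median absolute log2 fold changes were 0.075 for enzymes and transporters and 0.031 for Pex genes, both below the 0.088 over all genes.

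DMSO replicate 2 was the highest of the 11 libraries for 9 of 30 members, against 14.9% of all genes. They were Ehhadh, Hsd17b4, Acaa1b, Scp2, Gnpat, Pex16, Pex7, Pex13 and Pex6. Relative to the median of the other 10 libraries, it stood 8.03 times as high for Acaa1b, 1.55 times for Ehhadh, 1.45 times for Pex16, 1.29 times for Abcd2 and 1.27 times for Pex6. For Phyh the ratio was 0.84 and for Pex5 0.88. The median ratio was 1.07 over the members and 0.996 over all genes. In the same library Pparg, the PPAR receptor of adipocytes, was 3.14 times and Adipoq 3.80 times the median of the other 10 libraries. The part of adipocyte RNA in the levels of the members was not tested. Without this library, 5 members had an unadjusted p under 0.05 in edgeR (4.91% of all genes), namely Ehhadh, Crot, Phyh, Abcd2 and Pex6, and 0 passed the adjusted threshold. Negative values were then found for 15 of 30 members and for 51.3% of all genes.

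**Figure D4:**
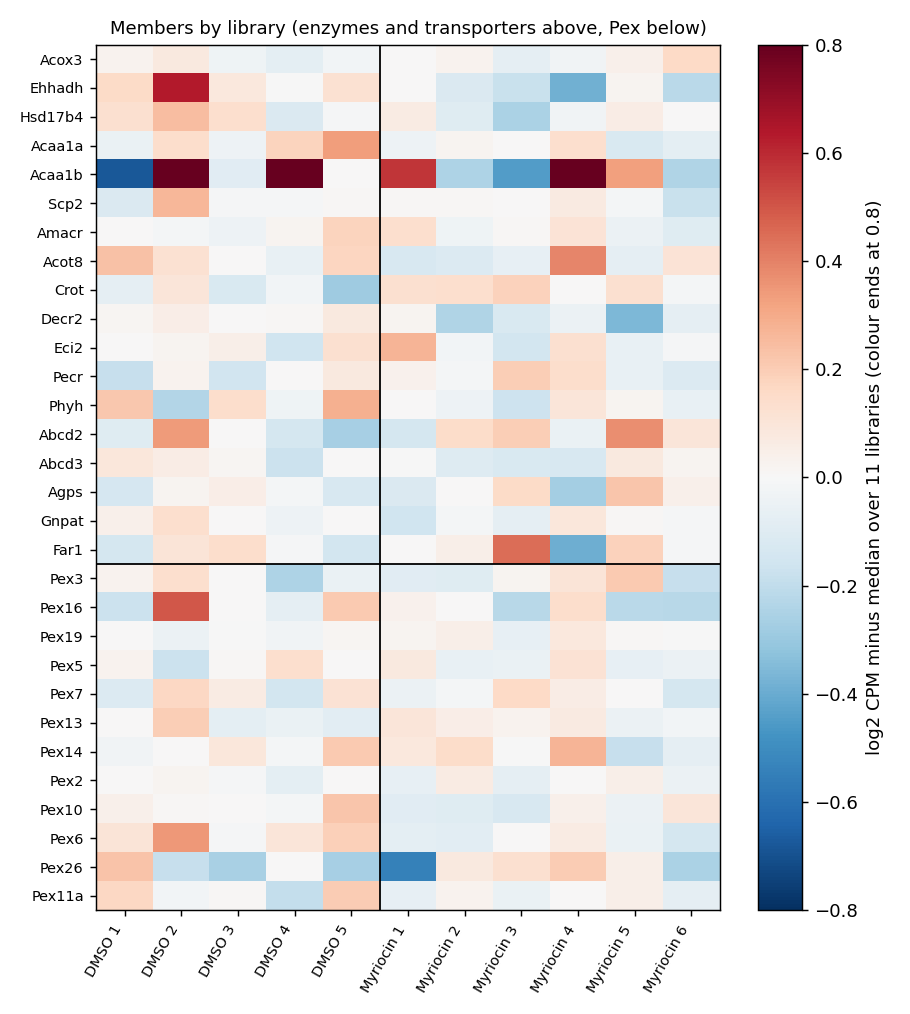
Log2 CPM of each tested member minus its median over the 11 libraries, with libraries in columns (DMSO left of the line, myriocin right) enzymes and transporters above the Pex genes, red for higher and blue for lower. Acaa1b passes the end of the colour scale, and DMSO replicate 2 holds the deepest red cell of the rows for Ehhadh, Pex16 and Pex6.

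The other genes of the pathway, from lists chosen beside the members, were not called either: each list had 0 genes past the adjusted threshold. For their counts, 53.8% of all genes were negative, and 2.3% were lower with myriocin at an unadjusted p under 0.05. Of 35 tested among 39 other peroxisomal genes, 25 had negative values, with a median of -0.092, and 2 were lower at that p. Without DMSO replicate 2 the median was -0.047, and 0 genes were lower at that p. The lowest value, picked after it was seen, was that of Slc27a2, an acyl-CoA synthetase for very long chains, at -1.58 (SE 0.79) and under 1 CPM on average in both groups. Without DMSO replicate 2 it was -0.81 (SE 0.73). The smallest p was that of Cat, catalase, which breaks down the hydrogen peroxide that peroxisomal oxidases make (111.2 ± 15.3 and 90.9 ± 15.97 CPM, SD, n = 5 and 6; log2 fold change -0.29, SE 0.12, edgeR adjusted p = 0.944).

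Mitochondrial beta-oxidation shares the chemistry of the peroxisomal spiral but uses other enzymes. Of its 18 tested genes, 17 were negative, their median being -0.134 and their values spanning -0.31 to 0.01, and 2 were lower at an unadjusted p under 0.05. Without DMSO replicate 2, 17 were again negative (51.3% of all genes), with a median of -0.159, and 3 were lower at that p. With all libraries the groups lay fully apart for 1 gene, Cpt2, lower with myriocin (0.163% of all genes). Its smallest p-values were those of Mlycd, which removes malonyl-CoA (log2 fold change -0.31, SE 0.08, edgeR adjusted p = 0.944), and of the carnitine transferase Cpt2 (-0.17, SE 0.06, edgeR adjusted p = 0.944). Among the pathway lists, PPAR targets outside the peroxisome had the lowest median, -0.46, with 11 of 11 tested genes negative. Before adjustment 7 of them had a p under 0.05, all lower with myriocin, and without DMSO replicate 2 the count was 5 and the median -0.54. The smallest p-values were those of the cytosolic thioesterase Acot1 (-0.85, SE 0.24, edgeR adjusted p = 0.944) and the lipase Lpl (-0.59, SE 0.18, edgeR adjusted p = 0.944). Among 8 PPAR factors and coactivators, 8 were negative with a median of -0.058, and 6 of 8 without DMSO replicate 2. The smallest p-values belonged to Rxrb (-0.09, SE 0.07) and Pparg (-0.42, SE 0.34), with edgeR's adjusted p at 0.944 for both. For Pparg, whose highest library was DMSO replicate 2, the value without it was 0.08 (SE 0.18). Ppard, picked after its value was seen, went from -0.09 (SE 0.08) to -0.16 (SE 0.07; edgeR adjusted p = 0.970) without that library. It was then the 1 gene of this list with an unadjusted p under 0.05, against 4.91% of all genes in either direction. These fold changes come from the same libraries, and differences between lists were not tested.

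Of the cell type markers in the same fits, 0 passed the adjusted threshold. For their counts, 53.8% of all genes were negative with all libraries and 51.3% without DMSO replicate 2. Endothelial markers were negative in 7 of 7 genes with a median of -0.15, and in 7 of 7 with -0.17 without DMSO replicate 2. Hepatocyte markers were negative in 9 of 9 tested genes in both fits, with medians of -0.57 and -0.86. Their sums were high in DMSO replicates 4 and 5 and Myriocin replicate 4 only, and Alb, the highest of them, had an SE of 1.01. White adipocyte markers were negative in 6 of 8 with a median of -0.38, but in 0 of 8 with a median of 0.48 without DMSO replicate 2. Brown adipocyte markers went from 4 of 4 tested negative, with a median of -0.42, to 2 of 4 and a median of 0.00. Those still negative were Cox8b, at 263 to 474 CPM over all libraries, and Ppargc1a, at 22.2 to 45.2 CPM. Ucp1 had 0 counts in 4 libraries, so these 2 genes do not mark brown adipocytes alone here. Cidea went from -1.79 (SE 1.08) to 0.76 (SE 0.52) and Dio2 from -0.71 (SE 0.49) to 0.10 (SE 0.31). Ucp1 and Elovl3 were not tested. Neutrophil markers went from 3 of 3 tested negative, with a median of -2.41, to 0 of 3 and a median of 1.65. Macrophage markers went from 4 of 6 negative (median -0.029) to 2 of 6 (median 0.039). Fibroblast markers went from 1 of 5 negative (median 0.19) to 2 of 5 (median 0.11). Among the 8 muscle fibre markers 3 were negative in both fits. The fibre type myosins Myh2, at -0.56 (SE 0.35), and Myh4, at 0.20 (SE 0.09), differed in sign. Ttn, the giant sarcomere protein titin, stood at 0.26 (SE 0.10). These 3 genes had the smallest unadjusted p of the fibre markers, and edgeR's adjusted p was 0.944 for each. The part of these cells in the values of the pathway lists was not tested.

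**Figure D5:**
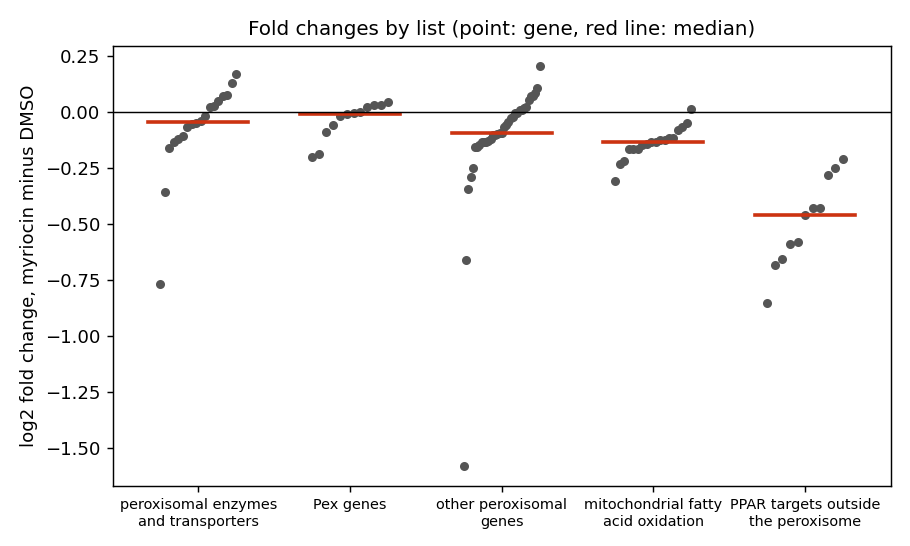
Log2 fold changes, myriocin minus DMSO, of the tested genes in 5 lists, each point being a gene and each red line a median. The medians are -0.044 for peroxisomal enzymes and transporters, -0.0058 for Pex genes, -0.092 for other peroxisomal genes, -0.134 for mitochondrial fatty acid oxidation and -0.46 for PPAR targets outside the peroxisome.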

How the data were processed

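RNA of quadriceps muscle was sequenced in 11 libraries, 5 DMSO and 6 myriocin. The authors deposited raw read counts per Ensembl gene, for which the submitters' processing notes name GRCm38, the aligner STAR (2.5.2b) and the counter HTSeq (0.6.0). The strand setting and the annotation release were not found in the labels or file. Antisense reads may be included, and 15 of 31 members share exon bases with another annotated gene. The 5 summary lines (24.8% to 28.2% of reads) stayed out of library sizes. The 3 counts taken as floor, and all intervals, cover counting error or fitted spread only, and PCR copies cannot be told apart.

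Gene names and exon lengths came from GENCODE M21 (GRCm38), which matched 53274 of 53465 identifiers. The test was edgeR 4.0.16 in R 4.3.3 (filterByExpr by group with minimum count 10 and total 15, TMM, robust quasi-likelihood F test), adjusted by Benjamini-Hochberg over 14117 genes, threshold 0.05, and was tested on simulated data. SE was calculated back from F. Means of log2 CPM used a prior count of 2. The members and lists, and the rule to name all members and the 2 genes with the smallest p of each other pathway list, were chosen with earlier results of these data known; 1 gene this rule takes is not reported here. Marker genes were named after their values were seen, for their level, for 0 counts or for their place in DMSO replicate 2. The muscle fibre markers given a fold change were those with the smallest p. Alternatives were DESeq2 1.42.0 and its size factors, upper-quartile scaling, no filter, leaving out each library, and a replicate block; added after seeing data were no scaling and 2 sets of 3 libraries left out. Libraries of a group were not copies of each other (chi-square per degree of freedom at least 8.91). Columns left unassigned numbered 0.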

Additional observations from a re-analysis of the deposited data

Results flagged for a closer look

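In a screen of 68 groups of values (31 members and 3 list means, each in DMSO and myriocin libraries), 6 had a library far from the rest of its group by Dixon's criterion, where chance gives about 1 in 20. DMSO replicate 2 was far above the other DMSO libraries for Ehhadh (15.6 CPM against 10.1 to 11.2 CPM) and for Pex13 (24.5 CPM against 20.2 to 21.4 CPM). It was also apart in the mean log2 CPM of the enzymes and transporters, at 4.91 against 4.62 to 4.69 in the other DMSO libraries. DMSO replicate 5 was above the other DMSO libraries for Amacr (23.6 CPM against 20.2 to 21.1 CPM) and for Pex10 (11.2 CPM against 9.49 to 9.87 CPM). Myriocin replicate 4 stood above the other myriocin libraries for Acaa1b (1.79 CPM against 0.306 to 0.618 CPM). DMSO replicate 2 held the adipocyte and neutrophil transcripts, and DMSO replicate 5 and Myriocin replicate 4 the hepatocyte transcripts, given in the report. Their part in these values was not tested.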

How the results depend on the processing

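The count of members past the adjusted threshold was 0 in all 19 alternative fits, the lowest adjusted p of a member being 0.392. The count over all genes was 0 with edgeR, with 651 genes at an unadjusted p under 0.05, and 0 to 0 when each library was left out; it was 1 without the filter on low counts and 3 with DESeq2. Genes at an unadjusted p under 0.05 numbered 1441 without Myriocin replicate 4, 1235 without the filter, and 1005 and 1140 without the libraries with liver transcripts or those farthest out. Of 30 members, 16 kept their sign throughout. Besides Acaa1b, values that changed sign were within 0.15 of 0. With upper-quartile scaling Pex2 was -0.0026. With no scaling beyond library totals, which moves values by 0.036 on average between the groups, Acox3 was -0.012, Eci2 -0.015, Pex3 -0.018, Pex19 -0.0063, Pex13 -0.0093 and Pex2 -0.035. With the replicate number as a block, Acox3 was -0.0028, Amacr 0.0044, Pex5 0.0031, Pex7 0.014 and Pex14 0.014. The medians under the replicate block were -0.032 for enzymes and 0.011 for Pex genes, and the count of members past the threshold was 0. Same-numbered libraries share only a number: the correlations of their deviations from the group means ran from -0.132 to 0.087, and 0 of 5 pairs correlated best with their own number. Without the 3 libraries with liver transcripts, Amacr was 0.015, Eci2 -0.0082, Pex3 -0.075, Pex5 0.017, Pex13 -0.019, Pex2 -0.015 and Pex26 -0.030. Without the 3 farthest out, Scp2 was 0.013, Pex7 0.056 and Pex26 -0.092. With each library left out in turn, the range was -0.0032 to 0.047 for Acox3, -1.01 to 0.19 for Acaa1b, -0.083 to 0.018 for Scp2, -0.043 to 0.020 for Amacr, -0.030 to 0.056 for Eci2, -0.016 to 0.15 for Far1, -0.029 to 0.064 for Pex3, -0.048 to 0.029 for Pex5, -0.057 to 0.021 for Pex7, -0.055 to 0.040 for Pex14, -0.013 to 0.013 for Pex2 and -0.0058 to 0.14 for Pex26. Acaa1b gave no value without Myriocin replicate 1, 4 or 5, where it missed the filter. The cause of these changes was not tested. Depth limits Acaa1b, Hacl1, Pex26 and Decr2, the members with the fewest reads.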
